A study of Mus musculus with 12 samples.

Results

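The Ikaros family is a set of 5 zinc finger transcription factor genes, Ikzf1 (Ikaros), Ikzf2 (Helios), Ikzf3 (Aiolos), Ikzf4 (Eos) and Ikzf5 (Pegasus). The 5 genes were chosen by name, and all 5 were present among the 24421 genes of the RNA-seq table. RNA was measured in 12 libraries of sorted embryonic mouse thymocytes in 6 groups of 2. CD25 KO and CD25 Control cells were sorted on CD25 from unstimulated thymi. ISP KO and ISP Control cells (CD8-positive, CD4-negative, immature single positive) and DP KO and DP Control cells (double positive for both coreceptors) were sorted from thymi cultured with anti-CD3 antibody (1 µg/ml, 2 days), which stands in for a receptor signal. All 6 groups were of C57BL/6 background, lacked Rag1 (Rag1KO) and carried Bcl6fl/fl alleles. The KO groups also carried LckCre, which drives Cre recombinase from the promoter of a T lineage kinase, and the Control groups were LckCre-negative, so that loss of Bcl6 and presence of Cre cannot be told apart. The embryos were at E16.5 by the sample labels, and a day older by the treatment protocol. Since ISP and DP cells were stimulated and CD25 cells were not, cell stage and antibody treatment cannot be told apart in any comparison with CD25 cells. Nothing in the labels ties the libraries to separate embryos or cultures, so p-values measure only the spread between these libraries, which may be technical.

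Ikaros family proteins bind DNA through fingers near the amino end and pair with each other through fingers at the carboxyl end. Ikaros, Helios and Aiolos work with the NuRD chromatin remodelling complex and other repressors in lymphocytes. In developing T cells Ikaros is known to restrain genes of the Notch pathway, Helios and Eos are best known from regulatory T cells, and Aiolos from maturing B and T lymphocytes. Rag1-deficient thymocytes stop at the CD25-positive stage because they cannot assemble an antigen receptor gene, and anti-CD3 lets them pass on to the ISP and DP stages.

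The finger stretch shown for Ikzf1, Ikzf2 and Ikzf5 starts the carboxyl-terminal pair, the kind of finger through which the family's proteins pair. Among Ikzf1 fingers with a match of equal length in every other member, it had the highest mean base identity to the best matches. Fingers were found by their pattern of paired cysteines and histidines in the GENCODE M21 coding sequence of 1 transcript of each gene, on GRCm38. The codons of the cysteines and histidines are in capitals, and each stretch is read along the gene's own strand, 5′ to 3′, over 63 bases.
Ikzf1: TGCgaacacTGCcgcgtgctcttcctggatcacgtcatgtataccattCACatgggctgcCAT
Ikzf2: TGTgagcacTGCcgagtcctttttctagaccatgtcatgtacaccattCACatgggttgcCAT
Ikzf5: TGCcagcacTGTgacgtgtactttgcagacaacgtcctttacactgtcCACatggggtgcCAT
The Ikzf1 stretch lies on the plus strand in exon 9 of its transcript, at chr11:11769411-11769473. Those of Ikzf2 and Ikzf5 lie on the minus strand, at chr1:69538870-69538932 (exon 8) and chr7:131391739-131391801 (exon 4). Against Ikzf1, identity over the stretch, which was chosen for high identity, was 82.5% for Ikzf2 and 68.3% for Ikzf5. The longest run of bases shared exactly by the annotated transcripts of any 2 members was 32, between Ikzf2 and Ikzf4. Ikzf5 (chr7:131388652-131410521) shares 4652 annotated exon bases with Pstk on the opposite strand. Whether the counting used strand is not given in the sources used here, so the level of Ikzf5 and its differences between groups are uncertain. Pstk, a kinase of selenocysteine synthesis, averaged 24.0, 19.5 and 18.4 RPKM in CD25, ISP and DP cells. The part of reads from Pstk in the values of Ikzf5 was not tested.

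The libraries held between 9657633 and 14227980 recovered reads. Groups follow the titles, but 6 of the 8 libraries from anti-CD3 cultures have a sequencing name that disagrees with the title on population or genotype, and some stage labels also differ from the title. The coreceptor genes separated the populations as titled: Cd4 was at 191 to 344 RPKM in the DP libraries, 13.9 to 20.5 in the ISP libraries and 1.03 to 1.78 in the CD25 libraries. Il2ra, which encodes CD25, was at 14.5 to 33.0 RPKM in DP, 24.2 to 44.7 in ISP and 538 to 603 in CD25 libraries. Bcl6 was not lower in any group labelled KO. It had 1.63 and 2.01 RPKM in CD25 KO, against 1.49 and 1.82 in CD25 Control. It had 18.9 and 25.1 RPKM in ISP KO, against 11.6 and 11.9 in ISP Control, and 87.7 and 111 in DP KO, against 70.0 and 72.5 in DP Control. These are sums over the gene and the labels do not say which part is flanked by loxP, so they do not check the genotype labels. KO and Control below mean libraries labelled so.

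Ikzf1, the founding member of the family and a repressor and activator of lymphoid genes, was the most abundant member in all 12 libraries. It had 25.8 and 25.2 RPKM (a read count scaled to gene length and library size) in CD25 KO, against 24.2 and 27.3 in CD25 Control. In ISP cells it had 62.8 and 69.7 RPKM in KO, against 58.9 and 54.5 in Control, and in DP cells 83.8 and 83.0 in KO, against 79.6 and 79.7 in Control. Levels in the 3 populations did not overlap, and DP was highest. The means were 25.6 ± 1.29, 61.5 ± 6.45 and 81.5 ± 2.20 RPKM in CD25, ISP and DP cells (SD, n = 4 each), so the ISP mean was 2.40 times that of CD25 and the DP mean 1.33 times that of ISP. Among 11303 genes tested, Ikzf1 stood at the 66.8th percentile of level in CD25 cells, the 83.9th in ISP cells and the 89.0th in DP cells.

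Ikzf3, which encodes Aiolos, had the largest differences of the 5 members between CD25 cells and the ISP and DP cells, whereas between DP and ISP cells Ikzf2 and Ikzf4 differed more. It was at 1.41 and 1.31 RPKM in CD25 KO, against 1.19 and 1.24 in CD25 Control, which rest on 59 to 72 reads per library. It was at 24.9 and 25.2 RPKM in ISP KO, against 29.1 and 26.4 in ISP Control. In DP cells it was at 35.1 and 29.4 RPKM in KO, against 38.8 and 40.3 in Control. All ISP and DP libraries lay far above all CD25 libraries, and every DP library lay above every ISP library. The means were 1.29 ± 0.0957, 26.4 ± 1.93 and 35.9 ± 4.87 RPKM in CD25, ISP and DP cells (SD, n = 4 each). The ISP mean of Ikzf3 was 20.5 times the CD25 mean and the DP mean 1.36 times the ISP mean.

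**Figure D1:**
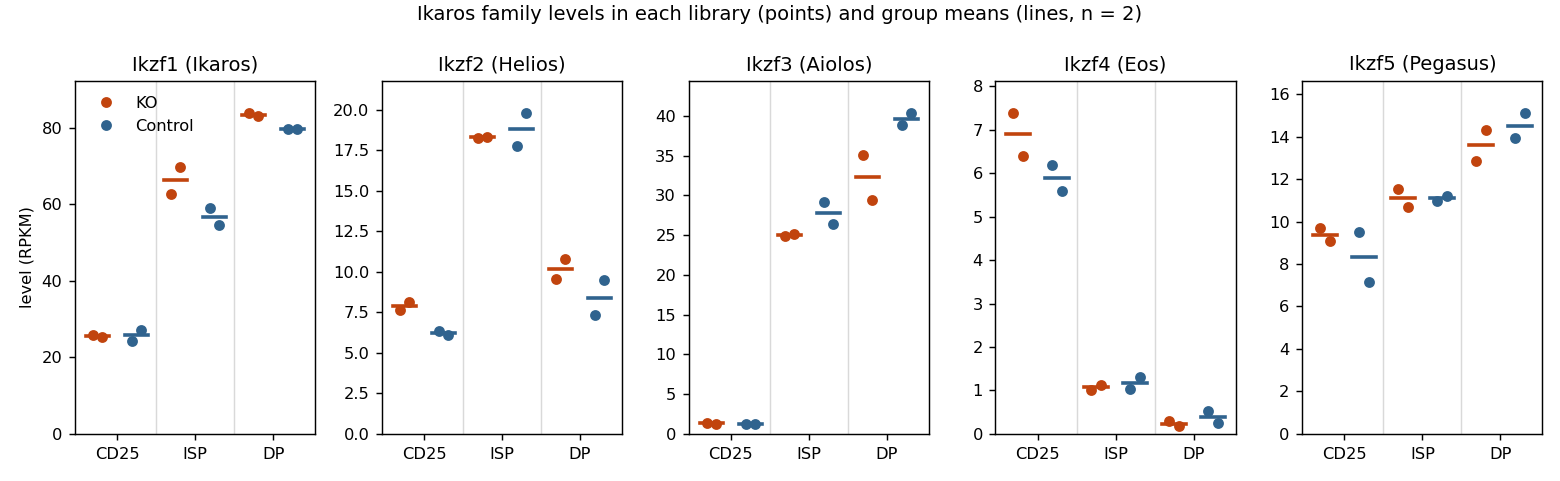
RPKM of each Ikaros family gene (y axes, linear and from 0, each gene on its own scale) in CD25, ISP and DP thymocytes. Points are single libraries, orange for KO and blue for Control, and lines are means of the 2 libraries of a group. Ikzf1 and Ikzf3 are highest in DP, Ikzf2 in ISP (17.8 to 19.8 RPKM) and Ikzf4 in CD25 cells.

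Ikzf2, which encodes Helios, peaked in ISP cells. It had 7.64 and 8.17 RPKM in CD25 KO, against 6.37 and 6.13 in CD25 Control. It had 18.3 and 18.3 RPKM in ISP KO, against 17.8 and 19.8 in ISP Control, and 9.59 and 10.8 in DP KO, against 7.32 and 9.47 in DP Control. The ISP libraries lay above all others, while the ranges of DP and CD25 libraries overlapped. The means were 7.08 ± 0.983, 18.5 ± 0.872 and 9.30 ± 1.45 RPKM in CD25, ISP and DP cells (SD, n = 4 each). The summed RPKM of 8 NK and innate lymphoid markers was also highest in ISP cells, with 1044 to 1266 there, 593 to 782 in CD25 and 113 to 217 in DP cells. Gzma, a granule protease, gave most of that sum in ISP cells (820 to 938 RPKM), and the NK lineage factor Eomes was at 0.323 to 0.509 RPKM there. Nkg7, a granule gene and the second largest part of the sum, had no such peak, with means of 219, 131 and 13.6 RPKM in CD25, ISP and DP cells. Of the 7 genes of the list that were tested, 6 rose and 1, Nkg7, fell in ISP against CD25. There 33.1% of all genes were called higher and 30.9% lower. All 7 fell in DP against ISP, where 35.0% of all genes were called lower. The part of these markers in the course of Ikzf2 was not tested. Fewer cells that express a gene and less RNA per cell cannot be told apart in these bulk samples.

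Ikzf4, which encodes Eos, took the opposite course to Ikzf1 and Ikzf3. It had 7.38 and 6.40 RPKM in CD25 KO, against 6.19 and 5.60 in CD25 Control. In ISP cells it had 1.02 and 1.12 RPKM in KO, against 1.03 and 1.32 in Control. In DP cells it had 0.289 and 0.176 RPKM in KO, against 0.531 and 0.252 in Control, which rest on 6 to 20 reads per library. The 3 populations did not overlap, and all DP libraries were under the 1 RPKM used as the filter on low values. The CD25 mean was 6.39 ± 0.742 RPKM, the ISP mean 1.12 ± 0.137 and the DP mean 0.312 ± 0.153 (SD, n = 4 each), so that the ISP mean was 0.176 times the CD25 mean and the DP mean 0.278 times the ISP mean. The summed RPKM of 4 regulatory T markers was also highest in CD25 cells (156 to 166), with 73.6 to 91.2 in ISP cells and 54.6 to 66.0 in DP cells. Most of the CD25 sum was Ctla4, an inhibitory receptor (104 to 117 RPKM). In ISP against CD25, Ctla4 fell and Nrp1, a coreceptor gene at 33.5 to 40.8, 42.1 to 47.9 and 40.7 to 51.9 RPKM in CD25, ISP and DP cells, rose, while Tnfrsf18 was not called. Foxp3, the factor that defines regulatory T cells, was at 0.0970 RPKM or less in every library. The part of these markers in the course of Ikzf4 was not tested.

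Ikzf5, which encodes Pegasus, had the smallest ratio between its highest and lowest population means. It had 9.68 and 9.10 RPKM in CD25 KO, against 9.52 and 7.15 in CD25 Control. It had 11.5 and 10.7 RPKM in ISP KO, against 11.0 and 11.2 in ISP Control, and 12.8 and 14.3 in DP KO, against 13.9 and 15.1 in DP Control. The populations did not overlap and kept the order CD25, ISP, DP from low to high. The means were 8.86 ± 1.17, 11.1 ± 0.369 and 14.0 ± 0.940 RPKM (SD, n = 4 each), a DP mean 1.59 times that of CD25.

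The summed RPKM of the 5 genes was 47.4 to 51.9 in CD25 libraries, 113 to 125 in ISP libraries and 138 to 145 in DP libraries. The makeup of that sum changed while the leading member did not. Ikzf1 made up 49.7% to 57.6% of it in CD25 libraries, 48.1% to 55.8% in ISP libraries and 55.0% to 60.3% in DP libraries. Ikzf3 made up 2.51% to 2.72% in CD25 libraries, 20.1% to 24.7% in ISP libraries and 21.3% to 27.9% in DP libraries. Ikzf4 made up 11.8% to 14.2% in CD25 libraries, 0.862% to 1.16% in ISP libraries and 0.128% to 0.378% in DP libraries. In CD25 cells the order of levels was Ikzf1, Ikzf5, Ikzf2, Ikzf4 and Ikzf3, where the ranges of Ikzf5 and Ikzf2 and those of Ikzf2 and Ikzf4 overlapped. In ISP cells the order was Ikzf1, Ikzf3, Ikzf2, Ikzf5 and Ikzf4, and in DP cells Ikzf1, Ikzf3, Ikzf5, Ikzf2 and Ikzf4, with no overlap between neighbours in either. Levels per length depend on the gene length the authors used: the value implied by the table was 5664 bases for Ikzf1, 9421 for Ikzf2, 4098 for Ikzf3, 3580 for Ikzf4 and 4390 for Ikzf5. The annotated exon bases in GENCODE M21 are 5777 for Ikzf1, 11613 for Ikzf2, 8754 for Ikzf3, 5995 for Ikzf4 and 5721 for Ikzf5. With annotated lengths in their place, Ikzf2 stood above Ikzf3 in ISP cells (14.4 to 16.1 against 11.7 to 13.6 RPKM), and the ranges of Ikzf2 and Ikzf4 in CD25 cells no longer overlapped. Ikzf3 then averaged 0.602, 12.4 and 16.8 RPKM in CD25, ISP and DP cells, against 25.1, 60.3 and 79.9 for Ikzf1. The share of Ikzf3 in the sum was therefore smaller than with the deposited RPKM. The order in CD25 and DP cells and the first place of Ikzf1 were the same under both lengths.

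**Figure D2:**
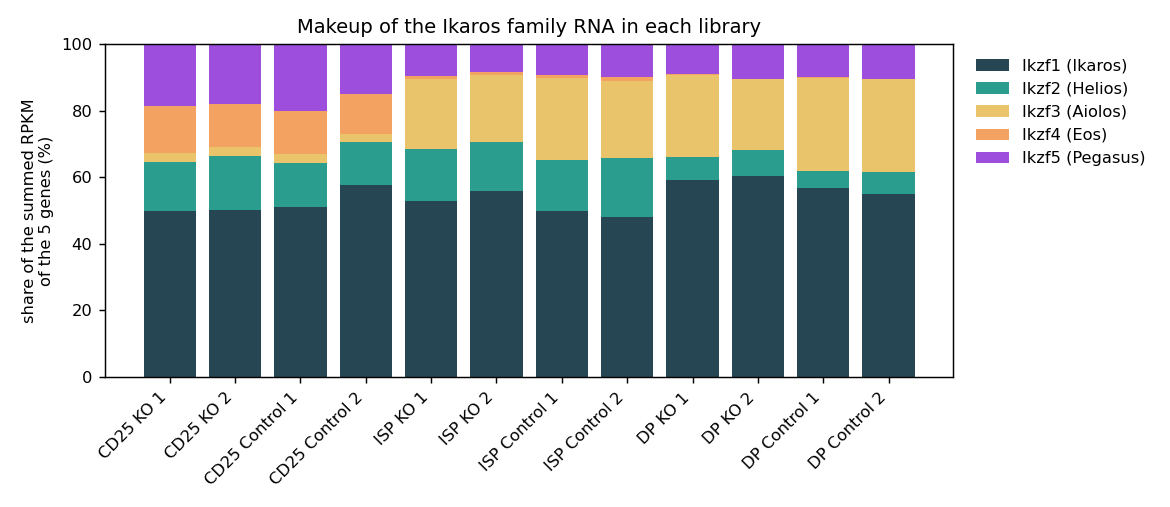
Share of the summed RPKM of the 5 genes (y axis, %) in each of the 12 libraries (x axis), stacked from Ikzf1 at the bottom to Ikzf5 at the top. With the deposited RPKM, Ikzf3 takes 20.1% to 27.9% in ISP and DP libraries and 2.51% to 2.72% in CD25 libraries. Ikzf4 is visible in CD25 libraries.

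Differences between populations were tested with limma on log2(RPKM + 1) over 11303 genes, and a gene was called at a Benjamini-Hochberg adjusted p under 0.05. In ISP against CD25 cells all 5 members were called, where 63.9% of all genes were called in either direction. Ikzf1, Ikzf2, Ikzf3 and Ikzf5 rose, as did 33.1% of all genes, and Ikzf4 fell, as did 30.9%. The log2 differences were 1.23 ± 0.05 for Ikzf1, 1.28 ± 0.08 for Ikzf2, 3.58 ± 0.07 for Ikzf3 and -1.80 ± 0.11 for Ikzf4 (SE, limma adjusted p of 4.62e-08 or less for each). For Ikzf5 the log2 difference was 0.30 ± 0.08 (SE, limma adjusted p = 0.00631). The Ikzf5 call was lost when libraries were rescaled to equal sums of RPKM (0.19, limma adjusted p = 0.0605) and among KO libraries alone (0.22, limma adjusted p = 0.0824), in a range of 0.000635 to 0.0257 when 1 library was left out. On this scale the changes of low genes such as Ikzf3 in CD25 cells and Ikzf4 in DP cells are understated.

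In DP against ISP cells all 5 members were again called, where 70.6% of all genes were (35.6% up and 35.0% down). Ikzf2 and Ikzf4 fell, with log2 differences of -0.94 ± 0.08 and -0.70 ± 0.11, and Ikzf1, Ikzf3 and Ikzf5 rose, with 0.41 ± 0.05, 0.42 ± 0.07 and 0.31 ± 0.08 (SE, limma adjusted p of 0.00449 or less for each). The median over all genes was 0.01 on the deposited scale and 0.16 after rescaling to equal sums of RPKM, and the 5 directions and calls held under both. With the 8 anti-CD3 libraries grouped by sequencing library name, no gene was called in DP against ISP (0 by limma), and Ikzf1 (-0.01), Ikzf4 (0.04) and Ikzf5 (-0.05) had the opposite sign. By name, DP and ISP each pool libraries with Cd4 above and below the gap between 20.5 and 191 RPKM. Within a single name group both libraries are of 1 titled population: the name groups KO hold libraries titled DP and the name groups Control libraries titled ISP, so KO against Control by name compares DP with ISP by title. In the 4 libraries whose title and name give the same population, the call of Ikzf5 was lost (0.27, limma adjusted p = 0.109) and those of the other 4 members were kept.

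Over the whole span, DP against CD25, all 5 were called, where 75.7% of all genes were (37.3% up and 38.4% down). Ikzf3 had a log2 difference of 4.00 ± 0.07, Ikzf1 1.63 ± 0.05, Ikzf5 0.62 ± 0.08, Ikzf2 0.35 ± 0.08 and Ikzf4 -2.50 ± 0.11 (SE, limma adjusted p of 0.00165 or less for each). The mean of the anti-CD3 populations (ISP and DP) against CD25 also called all 5, where 72.1% of genes were called (35.6% higher and 36.5% lower). This comparison shares its CD25 libraries with those above, and its log2 differences ran from -2.15 for Ikzf4 to 3.79 for Ikzf3.

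**Figure D3:**
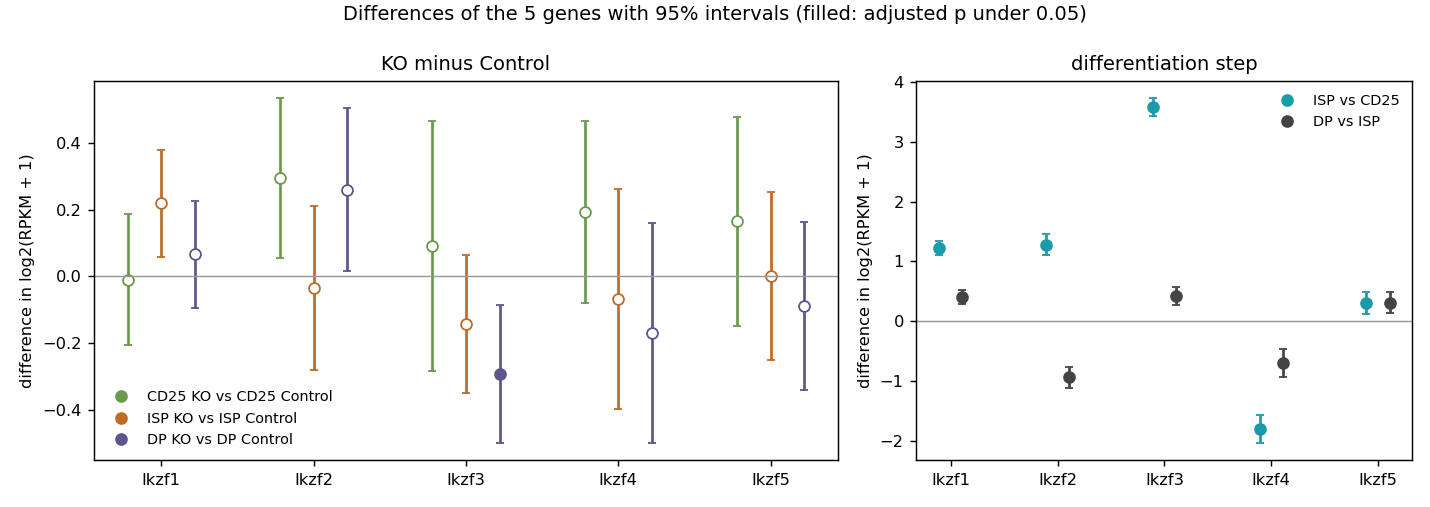
Differences of the 5 genes in log2(RPKM + 1) (y axes, different scales), KO minus Control in CD25, ISP and DP cells (left) and the steps ISP minus CD25 and DP minus ISP (right). Bars are 95% intervals from limma, filled points have an adjusted p under 0.05. In the left panel only Ikzf3 in DP cells is filled (-0.29), and all 10 points in the right panel are filled.

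KO and Control libraries were compared within each population. In CD25 cells 0 of 5 members were called, where 0.0188% of 10636 genes were (2 genes by limma, 972 at an unadjusted p under 0.05, 14 by limma-voom). Of the members, 1 had an unadjusted p under 0.05 and 0 were called by limma-voom. The largest difference was that of Ikzf2, at 0.30 (95% interval 0.06 to 0.53, limma adjusted p = 0.465), with both KO libraries above both Control libraries. Without CD25 KO library 1 or 2, 59 or 93 genes were called, and without CD25 Control library 1 or 2, 4 each, with 0 members called each time. In ISP cells 0 of 5 members were called, where 0.354% of genes were (40 genes by limma, 1494 at an unadjusted p under 0.05, 181 by limma-voom). Again 1 member had an unadjusted p under 0.05 and limma-voom called 0. Ikzf1 was higher in both KO libraries than in both Control libraries, with a log2 difference of 0.22 (95% interval 0.06 to 0.38, limma adjusted p = 0.21). Without ISP KO library 2, 11 genes were called, and without ISP Control library 1 or 2, 17 or 6, again with 0 members.

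In DP cells 1 of 5 members, Ikzf3, was called lower in KO, where 21.9% of all genes were called in either direction and 7.78% were called lower. Its log2 difference was -0.29 ± 0.09 (SE, limma adjusted p = 0.0459), and both KO libraries lay below both Control libraries. The call was kept by limma-voom, after rescaling to equal sums of RPKM and with the replicate number as a block. It was lost with a pseudocount of 0.1 (limma adjusted p = 0.0605), without the filter on low values (0.0706) and with only the 4 DP libraries in the fit (0.0677). It was also lost without DP KO library 2 (-0.17, limma adjusted p = 0.349), DP Control library 1 (-0.32, 0.125), DP Control library 2 (-0.27, 0.198) or any 1 of the CD25 KO, ISP KO and ISP Control libraries (0.0522 to 0.0637), over a range of 0.0145 to 0.349. By sequencing library name, which sets libraries titled DP against libraries titled ISP, it had the opposite sign (0.44). Ikzf2 was at 0.26 (95% interval 0.02 to 0.51, limma adjusted p = 0.12) and was called without DP Control library 2 (0.43, limma adjusted p = 0.0406, range 0.0406 to 0.639). The intervals were -0.09 to 0.23 for Ikzf1, -0.50 to 0.16 for Ikzf4 and -0.34 to 0.16 for Ikzf5. The number of all genes called, 2476, was smaller without DP KO library 2, DP Control library 1 or DP Control library 2. Each of these fits leaves 1 library in a group, so loss of power and the part of a single library cannot be told apart.

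Other cell and stage markers moved with the same libraries. The summed RPKM of Cd4, Cd8a and Cd8b1 was 3007 to 3323 in DP KO, against 3690 to 3723 in DP Control. Most of it was Cd8b1 (2042 to 2274 RPKM in DP KO, against 2495 to 2506 in DP Control). Of the 3 genes, Cd4 alone was called, and lower in DP KO (log2 difference -0.64, limma adjusted p = 0.0253). That call was lost with a pseudocount of 0.1 (limma adjusted p = 0.0634) and without the filter on low values (0.0844). The sum of 8 NK and innate lymphoid markers was 178 to 217 in DP KO, against 113 to 127 in DP Control. Of its 7 genes tested, Gzma (146 and 187 RPKM in DP KO, against 93.2 and 103 in DP Control) and Tyrobp, a signalling adaptor gene, rose. In the list 0 fell and the median was -0.04, where 14.1% of all genes were called higher and 7.78% lower. The receptor gene Ncr1, which marks NK cells, was at 0 and 0.0719 RPKM in DP KO, against 0.224 and 0.844 in DP Control, and Eomes at 0 to 0.0464 RPKM in DP KO and at 0 in DP Control. The sum of 8 myeloid markers, mostly the lysozyme gene Lyz2, was 51.5 to 76.2 in DP KO, against 13.0 to 19.0 in DP Control. This sum was likewise 40.4 to 55.5 in ISP KO, against 12.6 to 12.8 in ISP Control, and 38.2 to 38.4 in CD25 KO, against 21.7 to 27.3 in CD25 Control. Of 6 myeloid markers tested, 3 rose and 0 fell in DP KO. In ISP KO 1 rose and 0 fell, where 0.354% of all genes were called in either direction. In CD25 KO 0 of 5 tested were called, where 0.0188% of all genes were. Itgam, also on the list, was at 1.42 and 2.06 RPKM in DP KO, against 1.89 and 2.29 in DP Control. The part of these markers in the differences of Ikzf2 and Ikzf3 was not tested.

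Whether the genotype difference itself changed between populations was tested as an interaction. Between DP and ISP, 0 of 5 members were called, where 4.19% of genes were. By limma-voom 0 members were called, and 0 had an unadjusted p under 0.05. The largest was Ikzf2 at 0.30 (95% interval -0.05 to 0.64, limma adjusted p = 0.309). Ikzf3 was at -0.15 (95% interval -0.44 to 0.14, limma adjusted p = 0.557), so its difference was not shown to be particular to DP cells. Between ISP and CD25, 0 of 5 were called, where 0.00% of genes were (0 by limma, 1105 at an unadjusted p under 0.05, 19 by limma-voom). Of the members, Ikzf1 alone had an unadjusted p under 0.05, and limma-voom called 0.

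Genes listed as partners of the family, or as linked to it, were described as lists, and the links were not tested here. The list sizes and log2 differences follow, beside the median over all genes, which was 0.01 in ISP against CD25 and in DP against ISP. The counts stand against 33.1% of all genes called higher and 30.9% lower in ISP against CD25, and 35.6% higher and 35.0% lower in DP against ISP. The NuRD complex joins a chromatin remodelling enzyme to histone deacetylases. Of its 14 genes tested, 10 rose and 1 fell in ISP against CD25 cells (median 0.22). Cdk2ap1 (0.65 ± 0.05) and Rbbp4 (0.38 ± 0.04), a histone-binding subunit, rose and Mta3 (-0.46 ± 0.06) fell (SE, limma adjusted p of 3.14e-05 or less for each). In DP against ISP cells 3 rose and 8 fell (median -0.37). Rbbp7 (-0.98 ± 0.05), Cdk2ap1 (-0.93 ± 0.05) and Chd3 (-1.57 ± 0.12), a remodelling enzyme of the complex, fell and Mbd2 (0.43 ± 0.04), its reader of methylated DNA, rose (SE, limma adjusted p of 2.32e-06 or less for each). After rescaling to equal sums of RPKM, 6 NuRD genes rose and 8 fell in DP against ISP.

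Of 8 other corepressor genes, 5 rose and 0 fell in ISP against CD25 (median 0.35). Rb1, the retinoblastoma gene, rose by 0.92 ± 0.08 and Sin3b, a scaffold for deacetylases, by 0.43 ± 0.04 (SE, limma adjusted p of 1.86e-06 or less). In DP against ISP 4 rose and 1 fell (median 0.19), where Ncor1, a nuclear receptor corepressor, rose by 0.59 ± 0.05 and Sin3b by 0.53 ± 0.04 (SE, limma adjusted p of 8.97e-07 or less). The single fall was lost in most alternatives. Of 13 genes of the SWI/SNF remodelling complex, 7 rose and 2 fell in ISP against CD25 (median 0.22), with Arid1a at 0.69 ± 0.06 and the ATPase gene Smarca4 at -0.58 ± 0.05 (SE, limma adjusted p of 6.03e-07 or less). Without CD25 KO library 2, 1 fell. Between DP and ISP 9 rose and 3 fell (median 0.31), with Smarcd2 at 0.60 ± 0.04 and Actl6a at -0.64 ± 0.05 (SE, limma adjusted p of 1.35e-07 or less).

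Another list held 13 genes for kinases, phosphatases and ubiquitin ligase parts linked to Ikaros proteins, whose action on these proteins here was not tested. Of the 13, 7 rose and 6 fell in ISP against CD25 (median 0.18). The phosphatase subunit gene Ppp1cc rose by 0.63 ± 0.05, and Syk, a tyrosine kinase gene, was at -1.56 ± 0.10 (SE, limma adjusted p of 2.41e-07 or less). Between DP and ISP 3 rose and 7 fell (median -0.14), but after rescaling to equal sums of RPKM 6 rose and 2 fell. Of 22 tested genes linked to Ikaros factors in thymocytes or lymphoid precursors, 6 rose and 15 fell in ISP against CD25 (median -0.86). The cyclin gene Ccnd3 rose by 2.39 ± 0.04, and Ptcra, which encodes the pre-TCR alpha chain, was at -1.75 ± 0.08 (SE, limma adjusted p of 1.98e-09 or less). In DP against ISP 11 rose and 10 fell (median 0.12), and Myc, a growth regulator, was at -2.33 ± 0.06 (SE, limma adjusted p = 6.16e-11). This list holds Il2ra, Cd4 and Cd8a, whose proteins were used to sort the cells. Of 10 lineage partners, 7 rose and 3 fell in ISP against CD25 (median 0.40), with Tcf7 at 1.60 ± 0.04 and Runx1 at -1.52 ± 0.05 (SE, limma adjusted p of 4.66e-10 or less). Of the 10, 5 rose and 4 fell in DP against ISP (median 0.08), with Bcl11b at 0.78 ± 0.06 and Ets1 at 0.59 ± 0.05 (SE, limma adjusted p of 4.13e-07 or less).

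**Figure D4:**
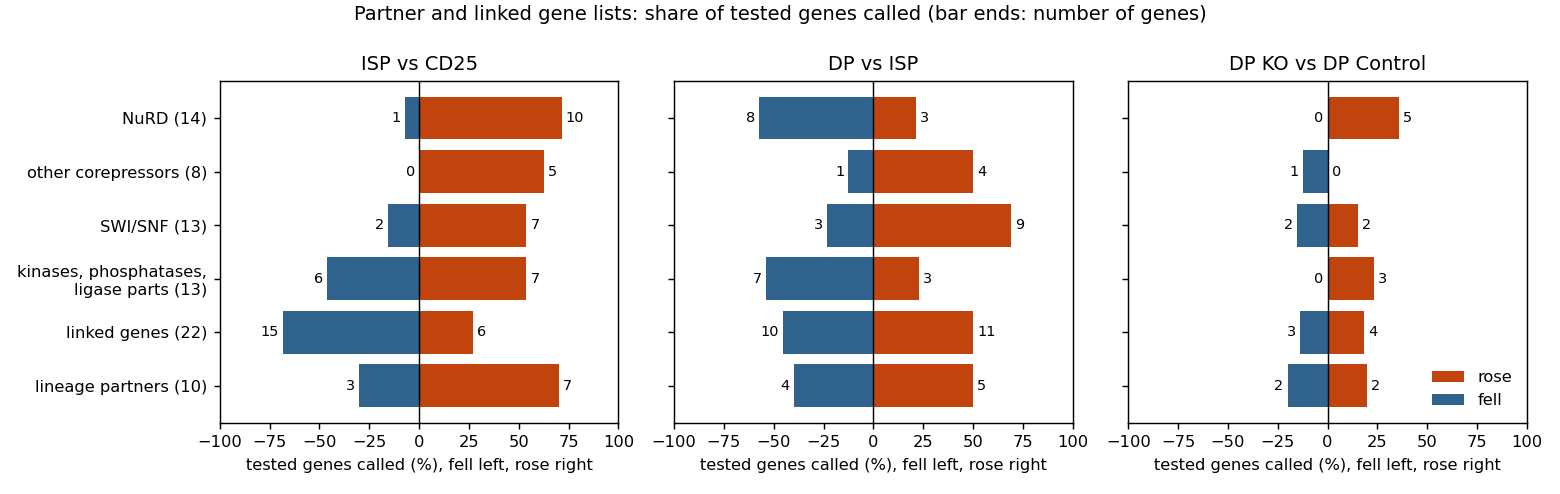
Share of the tested genes of 6 lists (rows, number tested in brackets) that rose (right, red) or fell (left, blue) at a limma adjusted p under 0.05, as % on the x axis, with the number of genes at each bar end. NuRD has 10 that rose in ISP against CD25, and 8 that fell in DP against ISP.

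In KO against Control, limma called 0 of 78 tested genes of these 6 lists in CD25 cells (11 at an unadjusted p under 0.05, 0 by limma-voom). Among all 10636 genes there, limma called 0.0188%, 972 had an unadjusted p under 0.05 and limma-voom called 14. In ISP cells limma called 0 of 80 (22 at an unadjusted p under 0.05, 6 by limma-voom). Among all 11303 genes there, limma called 0.354%, 1494 had an unadjusted p under 0.05 and limma-voom called 181. In DP cells 5 of 14 NuRD genes rose and 0 fell (median 0.04, against 0.00 over all genes), where 14.1% of all genes were called higher and 7.78% lower. Cdk2ap1 had 23.4 and 24.6 RPKM in DP KO, against 16.0 and 16.7 in DP Control (log2 difference 0.52 ± 0.07, SE, limma adjusted p = 0.000874). Rbbp4 was at 199 and 203 RPKM in DP KO, against 161 and 164 in DP Control (log2 difference 0.30 ± 0.06, SE, limma adjusted p = 0.00658). The NuRD count was 2 without DP KO library 2 or DP Control library 1, and 3 without DP KO library 1, DP Control library 2 or CD25 KO library 1. In DP KO against DP Control 0 other corepressor genes rose and 1 fell, 2 SWI/SNF genes rose and 2 fell, 3 kinase, phosphatase or ligase genes rose and 0 fell, 4 linked genes rose and 3 fell, and 2 lineage partners rose and 2 fell. Without DP KO library 2 the count in at least 1 direction was smaller by over 1.5 times in each of these other 5 lists. Actl6a of SWI/SNF rose by 0.37 ± 0.07 (SE, limma adjusted p = 0.00285). Myc had 35.5 and 41.6 RPKM in DP KO, against 18.8 and 20.9 in DP Control (log2 difference 0.92 ± 0.08, SE, limma adjusted p = 0.000103). By sequencing library name, again titled DP against titled ISP, all 4 of these genes had the opposite sign.

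For each member the 3 genes most like it and the 1 most opposite were found by Pearson's r of log2(RPKM + 1) over the 12 libraries, which share 3 populations. These values are a description. Ikzf1 was most like Ppp1r16b (r = 0.997), which had 2.93, 16.0 and 25.6 RPKM in CD25, ISP and DP cells, E2f2 (r = 0.994), a cell cycle transcription factor, and Pitpnm2 (r = 0.992), and most opposite to Vwa5a (r = -0.994). Ikzf2 was most like Herpud1 (r = 0.979), a gene of the endoplasmic reticulum stress response with 34.4, 64.8 and 41.7 RPKM, Cpox (r = 0.978), a haem synthesis enzyme, and Tpm4 (r = 0.976), and most opposite to the adaptor gene Lax1 (r = -0.980). Ikzf3 was most like Colq (r = 0.998), with 6.02, 64.5 and 94.6 RPKM, and the surface receptor genes Cd28 (r = 0.996) and Cd6 (r = 0.995), and most opposite to Paqr5 (r = -0.997). Ikzf4 was most like the zinc transporter gene Slc39a11 (r = 0.995), with 26.1, 6.47 and 3.15 RPKM, Cyth4 (r = 0.995) and Sh3bp5 (r = 0.994), and most opposite to E2f2 (r = -0.995). Ikzf5 was most like the transcription factor gene Creb1 (r = 0.974), with 12.6, 17.2 and 24.4 RPKM, Sgpp1 (r = 0.969) and Tmem263 (r = 0.968), and most opposite to Wdr73 (r = -0.961). Ikzf2 and Ikzf5 had looser nearest neighbours than the other 3 members.

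Promoter windows from RefSeq (GRCm38.p6, 300 bases across a start site) were matched for Ikzf1 and Ikzf5, the only members with windows available. They are shown with 2 motifs in capitals: the Ikaros core GGGAA on either strand (TTCCC on the other) and the BCL6 core TTCNNNGAA. The second Ikzf1 window (chr11:11689927-11690226, plus strand) holds GGGAA in 2 places and TTCNNNGAA in 1. The Ikzf5 window (chr7:131410429-131410728, minus strand) holds each in 1 place, and no motifs overlap.
Ikzf1: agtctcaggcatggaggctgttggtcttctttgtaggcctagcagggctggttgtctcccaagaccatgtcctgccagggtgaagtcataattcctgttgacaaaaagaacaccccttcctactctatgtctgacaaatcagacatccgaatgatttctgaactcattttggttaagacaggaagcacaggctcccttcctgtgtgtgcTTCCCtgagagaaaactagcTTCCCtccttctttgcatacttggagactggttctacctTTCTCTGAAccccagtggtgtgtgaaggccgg
Ikzf5: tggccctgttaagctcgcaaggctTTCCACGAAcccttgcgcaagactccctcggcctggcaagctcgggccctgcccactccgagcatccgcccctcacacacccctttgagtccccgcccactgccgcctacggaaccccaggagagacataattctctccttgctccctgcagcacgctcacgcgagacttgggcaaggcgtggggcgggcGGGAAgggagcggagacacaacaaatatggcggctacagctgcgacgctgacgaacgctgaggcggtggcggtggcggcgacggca
The first Ikzf1 window (chr11:11685675-11685974) held neither. Of 32851 promoter windows, 62.7% hold GGGAA and 8.30% hold TTCNNNGAA on either strand. The longer form TGGGAA (25.6% of windows) was in none of the 3, and the E-box CANNTG (72.3% of windows) was in the Ikzf5 window alone. A match is a description of the letters and not a binding site.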

How the data were processed

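The deposited table holds RPKM values per gene, computed by the authors. BWA and GRCm38 are named in the submitters' processing notes, and the sources used here give no counter, annotation or strand setting. RPKM and FPKM cannot be told apart here. Low values are whole multiples of a step. Reads were recovered with the step, for each gene, that made its values whole within 0.02 reads. This held for 100% of 169595 values above 0, a share that the search for a step favours. The gene lengths implied by the steps were not part of the search, and 98.8% came out whole within 0.02 bases. Libraries held 9657633 to 14227980 reads. Between the 2 libraries of a group, reads varied beyond counting error, with a chi-square per degree of freedom of 3.28 to 7.28. The deposited values were already on a median-of-ratios scale.

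Genes that reached 1 RPKM in 2 or more libraries were kept. Their log2(RPKM + 1) values were fitted by limma (version 3.58.1, R 4.3.3, trended prior) and p-values adjusted by Benjamini-Hochberg over all genes. CD25 genotypes were compared in their 4 libraries (10636 genes) and all else in 12 libraries and 6 groups (11303 genes). limma-voom on recovered reads was an alternative. The fit was also run on simulated reads with known changes, and no result given here rests on that run. The text names the 5 members, up to 4 genes of smallest p per list and comparison, the genes most like each member, Bcl6 and sort markers. Cell type markers formed 11 lists. Members and lists were chosen with earlier results of these data known. Tables were made with Python 3.11.15. Finger sequences of Ikzf3 and Ikzf4 are not reported here.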

Additional observations from a re-analysis of the deposited data

How the results depend on the processing

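Of 814 values of the 5 members under alternatives, 764 kept direction and side of the threshold, 24 changed sign, 20 lost a call and 11 gained one, where 3 of those lost and 2 of those gained also changed sign. Causes were not tested. Every change of sign past rescaling and left-out libraries came from grouping by sequencing library name. By name, DP against ISP called 0 genes and 0 members (Ikzf1 -0.0065, Ikzf4 0.041, Ikzf5 -0.046, Cdk2ap1 0.0043, Ets1 -0.062), and KO against Control, which by name sets libraries titled DP against libraries titled ISP, called 5502 genes and 5 members in ISP and 5622 genes and 4 members in DP. By name, Ikzf3 was at 0.40 in ISP KO and 0.44 in DP KO, and in DP KO Ikzf2 was at -1.02, Ikzf5 0.23, Cdk2ap1 -0.93, Rbbp4 -0.41, Actl6a -0.69, Myc -2.33 and Cd4 4.15. The interaction of DP with ISP by name called 0 genes (Ikzf1 0.027, Ikzf2 -0.17, Ikzf3 0.037, Ikzf4 0.34), and that of ISP with CD25 called 3372 genes and 2 members (Ikzf2 -1.15, Ikzf4 -1.06), with Ikzf3 (0.31) and Ikzf5 (0.23) of opposite sign and not called. In the 4 libraries with 1 population in both labels, DP against ISP called 5109 genes.

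Genes called in CD25 KO against Control were 1 with pseudocount 0.1, 1 without the filter, 14 by limma-voom, 9 with all 12 libraries in the fit, and 4 to 93 with 1 library left out, against 2. In ISP KO they were 8 without the filter, 181 by limma-voom and 6 to 56 with 1 library left out, against 40. In DP KO they were 844 to 2604 with 1 library left out, against 2476, and 0 to 1 members were called. Members called in DP KO were 0 with pseudocount 0.1, 0 without the filter and 0 in the 4 DP libraries. The interaction of DP with ISP called 185 genes without the filter, 294 after rescaling and 64 to 1053 with 1 library left out, against 474. The interaction of ISP with CD25 called 1 with pseudocount 0.1, 2 without the filter, 19 by limma-voom and 0 to 3 with 1 library left out, against 0. Rescaling gave Ikzf1 0.024 in CD25 KO and -0.038 in DP KO. With 1 library left out, Ikzf1 ranged over -0.093 to 0.074 and Ikzf5 over -0.019 to 0.35 in CD25 KO, and in ISP KO Ikzf2 over -0.11 to 0.039, Ikzf4 over -0.16 to 0.028 and Ikzf5 over -0.051 to 0.053. In the interactions Ikzf4 ranged over -0.25 to 0.044 (DP with ISP) and Ikzf5 over -0.35 to 0.020 (ISP with CD25).

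Nothing in the labels says that replicate numbers pair the libraries. Deviations of same-numbered libraries correlated at -0.066 (CD25), -0.030 (ISP) and 0.012 (DP) between KO and Control, and over all 15 pairs of groups at -0.066 to 0.125, where ISP Control with DP Control alone was over 0.1. With the replicate number as a block, the interaction of ISP with CD25 called 1 gene, against 0, and no call of a member changed. Depth limits Ikzf4 in DP cells, at 6 to 20 reads per library.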
